A study of Mus musculus with 3 samples.

Results

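The 9 genes described here, *Alx1*, *Alx4*, *Pax1*, *Pax3*, *Pax7*, *Pax9*, *Prrx1*, *Prrx2* and *Shox2*, encode paired-class transcription factors of the embryonic head, limb and trunk. They were picked by gene name and make up 9 of the 55401 genes in the deposited counts. All 9 matched a protein-coding gene of GENCODE M21.

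Bulk RNA-Seq counts were available for 3 libraries of maxillary prominences dissected from E10.5 *Wnt1cre; Rosa26Dlx2/-* embryos, called Dlx2-overexpressing (OE) replicates 1, 2 and 3. Every library carried the *Wnt1cre* transgene and the *Rosa26* CAG-LSL-Dlx2-3xFlag allele, in which Cre removes a stop cassette and releases *Dlx2*. Cre under *Wnt1* control acts in the neural crest and its descendants, and the allele is built to stay silent in other cells of the prominence. The 3 RNA samples were prepared independently, but the labels do not say whether each came from 1 embryo or from a pool, and the numbers 1 to 3 are names only. *Dlx2* itself stood at 235, 201 and 183 counts per 1000000 counts on genes in replicates 1, 2 and 3, without separation of transgene and endogenous reads. All values are levels in OE tissue and none is an effect of *Dlx2*, as wild-type libraries were not analysed here. A p-value below measures the spread between these 3 samples against counting noise.

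Paired-class proteins bind DNA through a homeodomain, a paired domain or both. In the face, the *Alx* and *Prrx* genes mark mesenchyme derived from the neural crest, and *Shox2* serves the anterior palate as well as the limb and heart. *Pax3* and *Pax7* mark early neural crest, dorsal neural tube and muscle precursors. *Pax9* is needed in tooth and palate mesenchyme, and both *Pax9* and *Pax1* are used in the pharyngeal pouches and the sclerotome.

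The class is defined by its DNA-binding residues, and a residue of the recognition helix helps to set which sites a paired-class homeodomain prefers. The coding stretches of this helix are shown for 6 of the 9 genes. Each stretch is 39 bases of the coding strand, 5′ to 3′, read from the GENCODE M21 transcripts. Capitals mark the codon that follows the conserved tryptophan and phenylalanine codons.
Prrx1: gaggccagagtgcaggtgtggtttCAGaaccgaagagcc
Alx1: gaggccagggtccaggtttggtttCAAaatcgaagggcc
Alx4: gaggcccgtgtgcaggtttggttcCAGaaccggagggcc
Shox2: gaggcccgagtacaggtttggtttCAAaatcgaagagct
Pax3: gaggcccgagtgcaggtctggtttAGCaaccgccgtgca
Pax7: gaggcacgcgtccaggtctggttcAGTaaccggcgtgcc

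In *Prrx1*, *Alx1*, *Alx4* and *Shox2* the marked codon encodes glutamine, while in *Pax3* and *Pax7* it encodes serine. No such stretch was found in either of the 2 coding transcripts of *Pax1* or of *Pax9*, which carry a paired domain without a full homeodomain. Over the 180 bases of the homeobox, *Pax3* and *Pax7* were identical at 80.6% of positions and *Alx1* and *Alx4* at 76.7%. The longest run of bases shared by the transcripts of a pair was 26 for *Pax3* and *Pax7*, 26 for *Pax1* and *Pax9*, and 19 for *Alx1* and *Alx4*.

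The libraries held 36544554, 35351031 and 40057435 counts on genes in replicates 1, 2 and 3. Counts were scaled with edgeR (TMM) to counts per 1000000 counts on genes (CPM), and levels of different genes were compared only as transcripts per 1000000 (TPM), which divides each count by the exonic length of the gene. A gene without counts may have been present at up to 0.0777, 0.0843 and 0.0796 CPM in replicates 1, 2 and 3, the level of 3 counts. Over the 17115 genes tested, which averaged 10 or more counts, the median SD of log2 CPM between the 3 libraries was 0.39. Summed CPM of the mesenchyme markers fixed for the tissue (*Twist1*, *Pdgfra* and 7 others) was 1144, 1165 and 1336, and that of 8 maxillary and oral markers such as *Lhx8* and *Barx1*, *Dlx2* included, was 1339, 1268 and 1922. *Barx1* alone was at 332, 409 and 928 CPM. Of these 8 markers, 5 were highest in replicate 1 and 3 in replicate 3. Mandibular markers summed to 34.1, 33.7 and 37.9 CPM, with 5 of 6 (*Hand2* among them) at 10 or more counts in every library. Markers of the second arch and posterior *Hox* genes summed to at most 0.440 CPM. The libraries also differed in markers of other tissues. Summed neuron markers were at 273, 24.3 and 35.9 CPM, summed eye and forebrain markers at 25.0, 158 and 146 CPM, and summed pigment cell markers at 2.49, 12.9 and 98.2 CPM. In bulk tissue, fewer cells of a type and less RNA per cell cannot be told apart.

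The 9 genes covered more than 3 orders of magnitude per length. *Prrx2* had the highest mean TPM, 427 ± 16.8 (SD, n = 3), and *Prrx1* followed at 158 ± 59.3. *Alx4* was at 37.5 ± 5.61 TPM and *Alx1* at 22.3 ± 9.19 TPM. The *Prrx* pair and the *Alx* pair thus lay above every *Pax* gene and *Shox2*, in each of the 3 libraries. *Pax9* was at 7.998 ± 1.62 TPM, *Shox2* at 5.84 ± 5.45 TPM and *Pax3* at 2.73 ± 0.584 TPM. The lowest levels were those of *Pax1* at 0.284 ± 0.393 TPM and *Pax7* at 0.258 ± 0.0772 TPM.

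**Figure D1:**
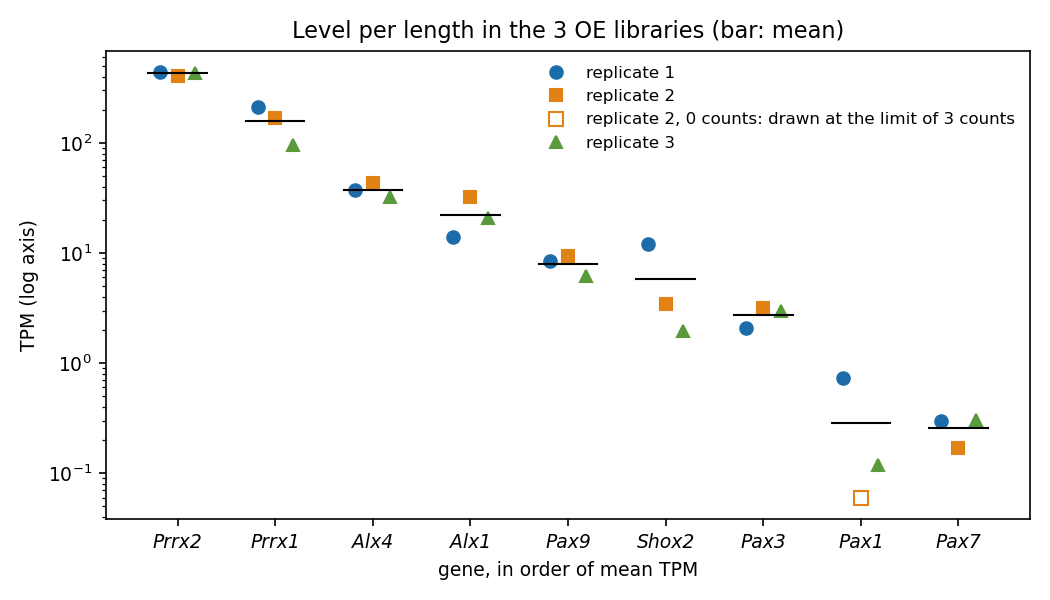
Level of each of the 9 genes in TPM (log axis), with 1 symbol per OE replicate and a bar at the mean of the 3 libraries. *Prrx2* lies near 427 TPM in all libraries, while *Shox2* runs from 12.1 TPM in replicate 1 to 1.97 TPM in replicate 3, and *Pax1* has no counts in replicate 2, where the open symbol stands at the TPM of 3 counts.

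Of the 8 pairs of neighbours in this order, 3 had overlapping ranges over the libraries, which were *Pax9* with *Shox2*, *Shox2* with *Pax3*, and *Pax1* with *Pax7*. The order of these neighbours was therefore within their spread. Without replicate 1, *Pax3* came above *Shox2* and *Pax7* above *Pax1*. The lowest *Alx4* value and the highest *Alx1* value were both 32.1 TPM, so this pair was apart by less than the last digit printed. The order of the *Alx* pair also turned with the length used, as described with the ratios below. Summed over the 9 genes, TPM was 727, 668 and 592 in replicates 1, 2 and 3, of which *Prrx2* took 60.5%, 61.1% and 73.1%.

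Read against counting noise, the 3 OE libraries differed for 8 of the 9 genes (chi-square test of the counts, Benjamini-Hochberg adjusted over all 17115 genes). The same test called 81.5% of all tested genes, so this share was close to the background. Without replicate 3 the test called 48.8% of all genes, and 53.4% with every gene of at least 1 count, with 8 of the 9 called in both settings. The exception was *Pax7*, with an adjusted p of 0.0547 in the chi-square test. The CPM of the highest library was at least 2 times that of the lowest for 5 of the 9 genes (*Alx1*, *Pax1*, *Pax3*, *Pax7* and *Shox2*), against 34.8% of all tested genes. *Prrx1*, *Prrx2*, *Alx4* and *Pax9* stayed below a ratio of 2. The median SD of log2 CPM over the 9 genes was 0.54, and 0.31 without replicate 1.

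*Prrx1* and *Prrx2* act together in craniofacial and limb mesenchyme. *Prrx1* (ENSMUSG00000026586, chr1:163245119-163313710 of GRCm38, minus strand) had 24260 counts in replicate 1, 20710 in replicate 2 and 15778 in replicate 3. On the CPM scale this was 629, 582 and 419, or 543 ± 110 CPM (SD, n = 3), lowest in replicate 3. *Prrx2* (ENSMUSG00000039476, chr2:30834972-30881251, plus strand) had 8911, 8907 and 12753 counts. Its CPM was 231, 250 and 339, or 273 ± 57.4 CPM, highest in replicate 3. The highest library was 1.50 times the lowest for *Prrx1* and 1.47 times for *Prrx2*. Both SDs of log2 CPM, 0.31 and 0.29, were below the median of all tested genes.

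The order of the libraries in the *Prrx* pair turned around, with smaller differences, once each library's trend with gene length and GC content had been taken out. The exonic lengths of *Prrx1* and *Prrx2* are 11066 and 1961 bases, the longest and the shortest of the 9 genes. With the trend removed, the SD of log2 CPM was 0.10 for *Prrx1* and 0.13 for *Prrx2*, and the order of the libraries was reversed in both, so that the genes still ran opposite to each other. *Prrx1* in replicate 3 stood at -0.53 against the mean of the other libraries on the log2 scale as counted, and at 0.16 after removal. *Prrx2* in replicate 3 went from 0.49 to -0.22. Removal of GC content along with length was a setting chosen after seeing the data. With a trend on length alone removed, the SD of log2 CPM was 0.03 for *Prrx1* and 0.11 for *Prrx2*. What either trend reflects was not tested.

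**Figure D2:**
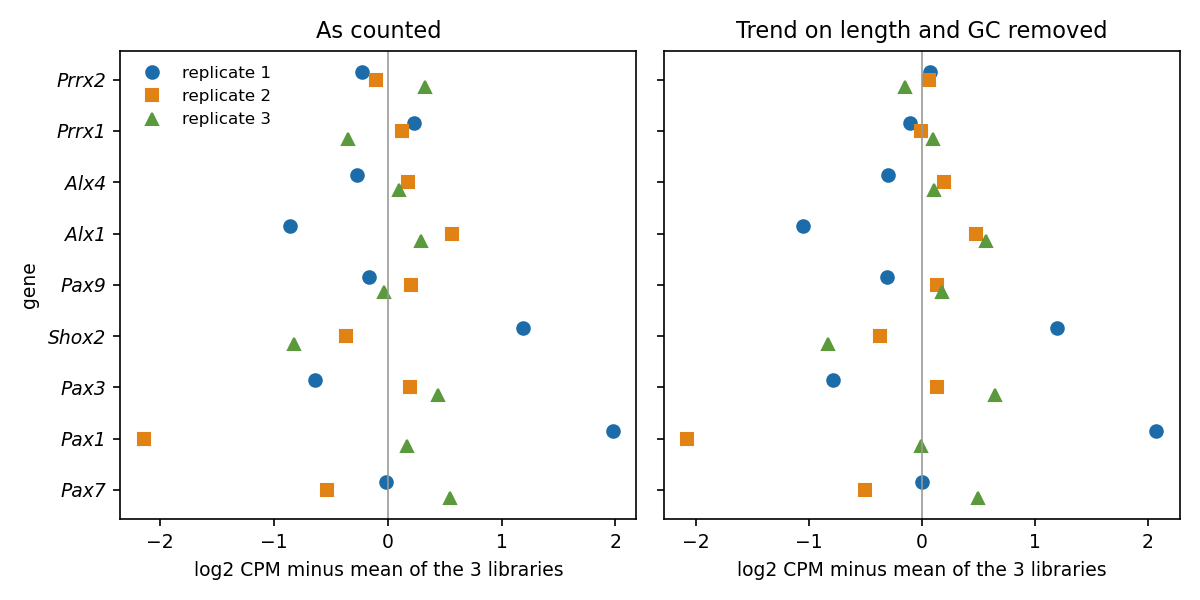
Deviation of each library from the mean of the 3 libraries in log2 CPM for the 9 genes, as counted on the left and with a smooth trend on length and GC content removed on the right. The *Prrx* symbols draw together and change sides between the panels, while *Alx1* stays low and *Shox2* and *Pax1* stay high in replicate 1.

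The *Alx* genes pattern the midface and the nasal region, and *Alx4* also acts in the limb and skull vault. *Alx4* (ENSMUSG00000040310, chr2:93642384-93681339, plus strand) had 2707 counts in replicate 1, 3404 in replicate 2 and 3408 in replicate 3. This gave 70.1, 95.6 and 90.5 CPM, or 85.4 ± 13.5 CPM (SD, n = 3), with a chi-square adjusted p of 4.41e-35. *Alx4* was lowest in replicate 1, by 1.36 times against the highest library. The SD of log2 CPM was 0.24, and 28.4% of all tested genes had a smaller one.

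*Alx1* (ENSMUSG00000036602, chr10:102998707-103030215, minus strand), which is needed for the frontonasal skeleton and the eye region, varied more. It had 826, 2057 and 1801 counts in replicates 1, 2 and 3, or 21.4, 57.8 and 47.8 CPM (42.3 ± 18.8, SD, n = 3). Replicate 1 was again the lowest, 2.70 times under replicate 2, with a chi-square adjusted p of 2.84e-137. The SD of log2 CPM was 0.76 as counted and 0.91 with the length and GC trend removed. Of the exonic bases of *Alx1*, 4.22% lie under *Gm17028*, a lincRNA of the same strand, which was at most at 0.770 CPM.

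Replicate 1 thus had the lowest CPM of both *Alx1* and *Alx4*. As counted, it was the lowest library for 5 of the 9 genes, with *Prrx2*, *Pax3* and *Pax9* the others. The same library was the lowest for 7 of 7 eye and forebrain markers and for 6 of 6 tested neural tube markers. It was also the lowest for 5 of 5 tested pigment cell markers and 5 of 6 erythroid markers. Of 9 facial mesenchyme markers, 5 were lowest in replicate 1 and 4 in replicate 3. Of all tested genes, 39.3% were lowest and 39.6% highest in replicate 1, against which such counts of genes and markers are to be read. Summed erythroid markers were at 2132, 3990 and 4916 CPM. *Six3* was at 4.02, 26.9 and 21.1 CPM and *Lhx2* at 7.98, 41.9 and 33.7 CPM, and summed neural tube markers were at 43.0, 94.0 and 158 CPM. None of the 7 eye and forebrain markers was at 0 in any library, while *Nkx2-2* of the neural tube list was at 0 in replicate 1. The part of these tissues in the *Alx* levels was not tested.

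*Shox2* (ENSMUSG00000027833, chr3:66971727-66981771, minus strand) is a regulator of palate, limb and pacemaker development that is also used in sensory neurons. Replicate 1 held 413 counts of it, replicate 2 held 128 and replicate 3 held 98. The corresponding levels were 10.7, 3.60 and 2.60 CPM, or 5.63 ± 4.42 CPM (SD, n = 3). Replicate 1 stood apart, since its 95% exact interval for counting error ran from 9.69 to 11.8 CPM and the interval of replicate 2 ended at 4.28 CPM. The highest library was 4.11 times the lowest, with a chi-square adjusted p of 1.76e-56. The SD of log2 CPM was 1.06, and 93.6% of all tested genes had a smaller one. Removal of the length and GC trend left it at 1.06. Without replicate 1, mean *Shox2* was 3.02 CPM.

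The library high in *Shox2* was also high in markers of other tissues. All 9 neuron markers were highest in replicate 1, among them *Tubb3* at 115, 7.64 and 16.9 CPM. Glia and migrating crest markers, 5 of 6 highest in replicate 1, summed to 98.2, 25.2 and 26.4 CPM. Surface epithelium markers, 6 of 7 highest in replicate 1, summed to 456, 297 and 275 CPM, and no marker of these lists was at 0 in any library. The part of these tissues in the *Shox2* level was not tested. Of the exonic bases of *Shox2*, 153 or 4.62% lie opposite exons of *Rsrc1*, which was at 68.6, 63.7 and 41.9 CPM. The strand setting of the counting is not given in the sources used here, so reads from these bases may have been left out or assigned to either gene.

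*Pax9* (ENSMUSG00000001497, chr12:56691767-56712822, plus strand) had the smallest SD of log2 CPM of the 9 genes as counted. With the length and GC trend removed, *Prrx1*, *Prrx2* and *Alx4* had smaller ones. With a trend on length alone removed, only *Prrx1* and *Prrx2* did, as *Alx4* stood at 0.39 against 0.22 for *Pax9*. Its counts were 441 in replicate 1, 526 in replicate 2 and 471 in replicate 3. They corresponded to 11.4, 14.8 and 12.5 CPM, or 12.9 ± 1.71 CPM (SD, n = 3), and the highest library exceeded the lowest by 1.29 times. The SD was 0.19 as counted and 0.27 with the length and GC trend removed, and the chi-square test gave an adjusted p of 0.000349. Without replicate 2, the chi-square adjusted p was 0.210, so the call rested on that library. *Pax9* shares 3.74% of its exonic length with *Slc25a21* on the opposite strand, which was at 1.70 to 2.30 CPM.

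*Pax1* (ENSMUSG00000037034, chr2:147361925-147393295, plus strand), the paralogue of *Pax9*, was near the limit of detection. It had 34 counts in replicate 1, 0 in replicate 2 and 8 in replicate 3. The levels were 0.881, 0 and 0.212 CPM, with 95% exact intervals of 0.610 to 1.23, 0 to 0.104 and 0.0917 to 0.418 CPM. These intervals did not overlap between replicate 1 and the others, and the chi-square adjusted p was 1.28e-09. With replicate 2 alone set to the level of 3 counts, *Pax1* in replicate 1 was at least 10.45-fold higher, a bound that holds for this limit and not for the higher upper end of the exact interval. Its mean was 0.364 ± 0.460 CPM (SD, n = 3) and was 0.103 CPM without replicate 1, where too few counts were left for the chi-square test.

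Markers of pharyngeal endoderm, a tissue that expresses *Pax1*, summed to 34.0, 21.1 and 17.7 CPM in replicates 1, 2 and 3. Of the 6 tested, 4 were highest in replicate 1, and *Foxe1*, among these 4, stood at 17.5, 8.48 and 7.91 CPM. The others were *Sox17*, highest in replicate 2 at 10.51 CPM and lowest in replicate 3 at 7.57 CPM, and *Nkx2-3*. *Nkx2-3* was highest in replicate 3, at 0.389, 0.281 and 0.956 CPM in replicates 1, 2 and 3. *Foxa2* was at 1.45, 0.0562 and 0.106 CPM, and *Gcm2* was at 0 in replicates 1 and 3. Markers of somite and sclerotome, where *Pax1* is also used, summed to 42.7, 51.1 and 87.0 CPM. Most of this sum came from *Foxc2*, at 23.5, 32.4 and 44.0 CPM, and *Tcf15*, at 6.89, 14.6 and 37.5 CPM. Of the 7 somite and sclerotome markers, 3 were lowest in replicate 1 and 3 in replicate 2. Replicate 3 was the highest for 5 of the 7, while *Tbx18* was highest in replicate 1 at 9.72, 1.77 and 1.43 CPM. The part of either tissue in the *Pax1* counts was not tested.

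*Pax3* (ENSMUSG00000004872, chr1:78101267-78197134, minus strand), a regulator of early neural crest, had 132 counts in replicate 1, 218 in replicate 2 and 275 in replicate 3. The values were 3.42, 6.12 and 7.30 CPM, or 5.61 ± 1.99 CPM (SD, n = 3), and replicate 1 was the lowest, as for the *Alx* genes. The highest library was 2.13 times the lowest, with a chi-square adjusted p of 3.90e-12. Replicates 2 and 3 had overlapping exact intervals, 5.34 to 6.99 and 6.46 to 8.22 CPM, and without replicate 1 the chi-square adjusted p was 0.0719. Neural tube markers were lowest in the same library, and *Mitf*, a target of *Pax3* in pigment cells, was at 1.84, 4.78 and 7.51 CPM. Summed pigment cell markers, which include *Mitf*, were at 2.49, 12.9 and 98.2 CPM, and their part in the *Pax3* level was not tested. Glia and migrating crest markers ran the other way, highest in replicate 1 at 98.2, 25.2 and 26.4 CPM summed, with the crest factor *Sox10* at 37.2, 5.65 and 7.94 CPM.

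*Pax7* (ENSMUSG00000028736, chr4:139737062-139833528, minus strand), used in cranial neural crest and muscle satellite cells, was low in every library. It had 18, 11 and 27 counts, or 0.466, 0.309 and 0.717 CPM (0.497 ± 0.206, SD, n = 3). The exact intervals, 0.276 to 0.737, 0.154 to 0.553 and 0.472 to 1.04 CPM, overlapped between all libraries. The ratio of 2.32 between the highest and the lowest library therefore rested on few counts. A difference between the libraries was not detectable at this depth with TMM scaling, where the chi-square adjusted p was 0.0547, while DESeq2 size factors gave 0.0485.

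**Figure D3:**
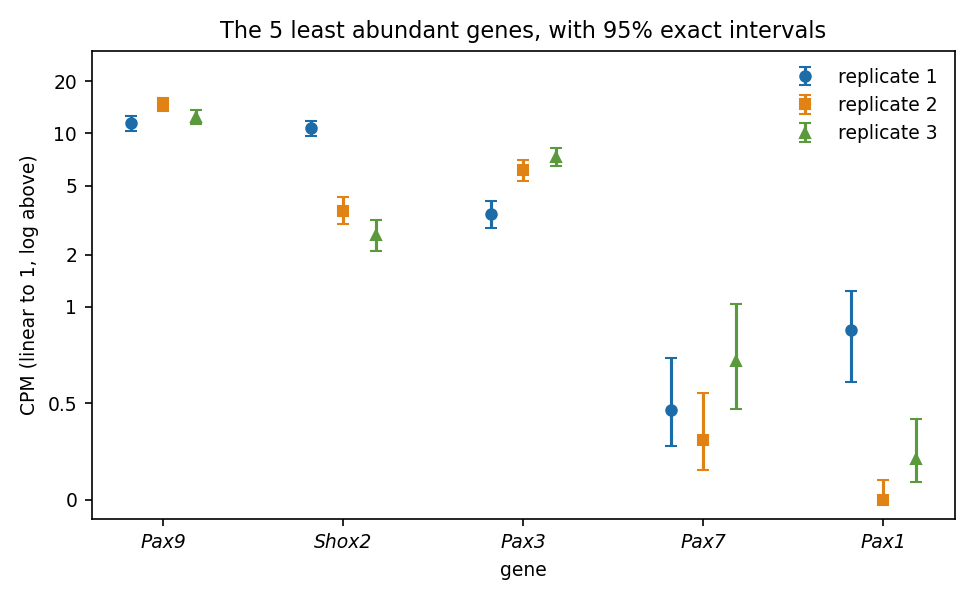
CPM of the 5 genes with the lowest mean TPM in each OE replicate (axis linear up to 1 and logarithmic above), with bars for 95% exact intervals of counting error. Replicate 1 lies clear of the others for *Shox2* and *Pax1* at the top and for *Pax3* at the bottom, while the *Pax7* intervals overlap throughout.

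Ratios of related genes within 1 library do not depend on the scaling of the libraries. *Prrx1* was below *Prrx2* per length in every library, at TPM ratios of 0.482, 0.412 and 0.219, for a mean log2 ratio of -1.51 ± 0.60 (SD, n = 3). The range of the log2 CPM difference of this pair between the libraries was 1.14 as counted and 0.43 with the trend removed. *Pax3* exceeded *Pax7* in every library, by 6.95, 18.8 and 9.65 times in TPM, for a mean log2 ratio of 3.43 ± 0.73. *Pax9* exceeded *Pax1* by 11.5 times in replicate 1, at least 155.77 times in replicate 2, with *Pax1* set to the level of 3 counts there, and 52.3 times in replicate 3. The bound holds for that limit only.

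*Alx4* exceeded *Alx1* by 2.67, 1.35 and 1.54 times in TPM, for a mean log2 ratio of 0.83 ± 0.52 (SD, n = 3). This direction depended on the length assigned to *Alx1*, whose joined exons span 5756 bases while its longest transcript has 2689. With the length of the longest transcript for each gene, the mean log2 ratio was -0.27. The direction between the *Alx* genes is therefore not settled by these counts. The ratio was highest in replicate 1, and the range of the log2 CPM difference was 0.98 as counted and 1.22 with the trend removed.

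**Figure D4:**
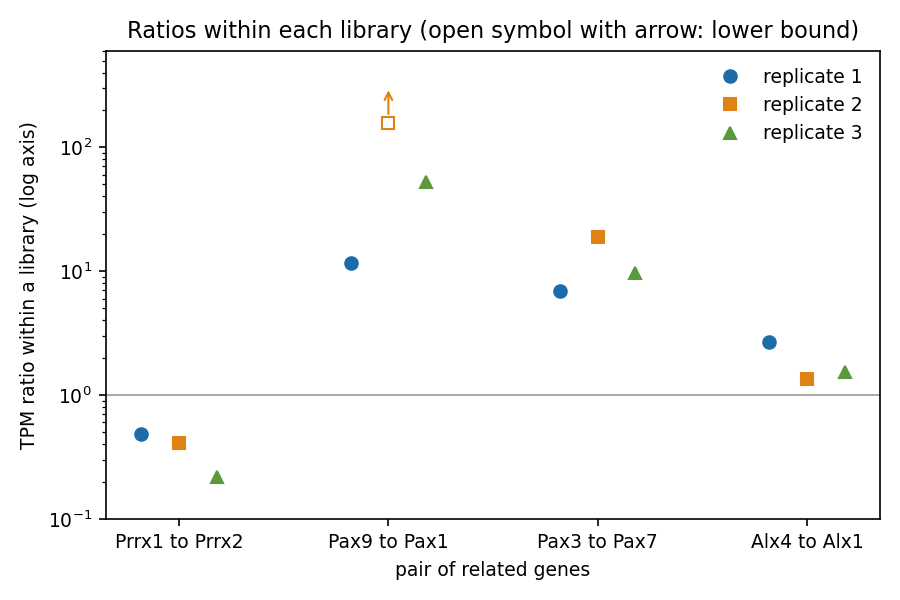
TPM ratio within each OE library for the related pairs (log axis), with 1 symbol per replicate and an open symbol with an arrow for a lower bound. *Prrx1* to *Prrx2* stays below 1 and the other ratios lie above 1 in all 3 libraries, with *Pax9* to *Pax1* the widest.

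Other genes of the paired class were detected less often than the 9, of which 8 had at least 10 counts in every library. Of 30 matched genes outside the 9, 11 had at least 10 counts in every library, 9 had 3 or fewer in every library and 6 had none at all. Per length, *Pitx1*, a gene of oral epithelium and mandibular mesenchyme, was the most abundant on the mean, at 94.6, 69.5 and 64.1 TPM. *Gsc* was at 4.05, 5.81 and 30.6 TPM and *Otx1* at 9.16, 12.7 and 8.35 TPM. Not all of them were rarer than the 9. Mean *Pitx1*, 76.1 TPM, lay above mean *Alx4* and *Alx1*. Mean *Gsc*, 13.5 TPM, and mean *Otx1*, 10.1 TPM, lay above *Shox2* and every *Pax* gene of the 9. *Prrx2* and *Prrx1* were thus above every other measured gene of the class on the mean over the libraries. All 17 genes that could be tested differed between the libraries (chi-square), against 81.5% of all genes, and 13 reached a ratio of 2 between the highest and the lowest library, against 34.8%.

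Genes known as partners or targets of the 9 were described in the same way. All 13 had at least 10 counts in every library, 12 differed between the libraries in the chi-square test, against 81.5% of all tested genes, and 7 reached a ratio of 2, against 34.8%. In the mesenchymal pathway that *Pax9* and *Prrx* genes share, *Msx1* was at 193, 218 and 277 CPM and the ligand *Bmp4* at 35.0, 43.3 and 46.3 CPM. *Osr2*, a palate regulator downstream of *Pax9*, stood at 2.15, 2.30 and 6.90 CPM, highest in replicate 3. *Fgf10*, another palate ligand, was at 17.9, 15.2 and 13.6 CPM.

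The bone regulator *Runx2* was at 2.28, 3.06 and 6.42 CPM and the matrix gene *Tnc*, a *Prrx1* target, was at 3.60, 2.25 and 4.17 CPM. *Nkx3-2*, a target of *Pax1* and *Pax9* in sclerotome, was at 0.544, 0.478 and 0.584 CPM, with a chi-square adjusted p of 0.834. *Tfap2a*, a neural crest and ectoderm factor, was at 30.3, 20.9 and 20.4 CPM. Among targets of *Pax3*, *Met* was at 8.58, 3.82 and 2.20 CPM and *Myf5* at 3.14, 0.450 and 2.12 CPM, while *Ret* was at 0.440, 6.86 and 1.43 CPM. *Shh*, the epithelial ligand of palate and oral tissue, was at 3.26, 1.18 and 0.717 CPM, highest in replicate 1 as *Shox2* was.

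The genes whose log2 CPM profile over the 3 libraries lay nearest to that of each variable gene were listed from 11279 or 11280 protein-coding candidates averaging 100 or more counts. With 3 libraries, such likeness is a description only. For *Shox2* they were *Nebl*, *Spock2* and *Megf10* at Euclidean distances of 0.05, 0.15 and 0.19 on the log2 scale. *Nebl* stood at 12.4, 4.10 and 3.11 CPM. For *Alx1* they were *Filip1*, *Itga2b* and *Tbx22* at 0.08, 0.15 and 0.21, and *Tbx22*, a palate gene, stood at 2.51, 8.43 and 6.48 CPM.

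For *Pax3* the nearest were *Fez1*, *Them6* and *Tnfrsf25* at 0.03, 0.04 and 0.07, with 9 candidates within a distance of 0.1. For *Pax7* they were *Adcy5*, *Fam221a* and *Pdlim2* at 0.06, 0.08 and 0.09, with 4 within 0.1. *Pax1* had no candidate within 0.1, and the nearest were *Alcam*, *Stmn2* and *Elavl3* at 0.51, 0.54 and 0.59. The latter pair are neuron markers, at 30.7, 1.66 and 5.42 CPM for *Stmn2* and 15.3, 0.562 and 2.42 CPM for *Elavl3*, and the part of neurons in the *Pax1* counts was not tested.

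**Figure D5:**
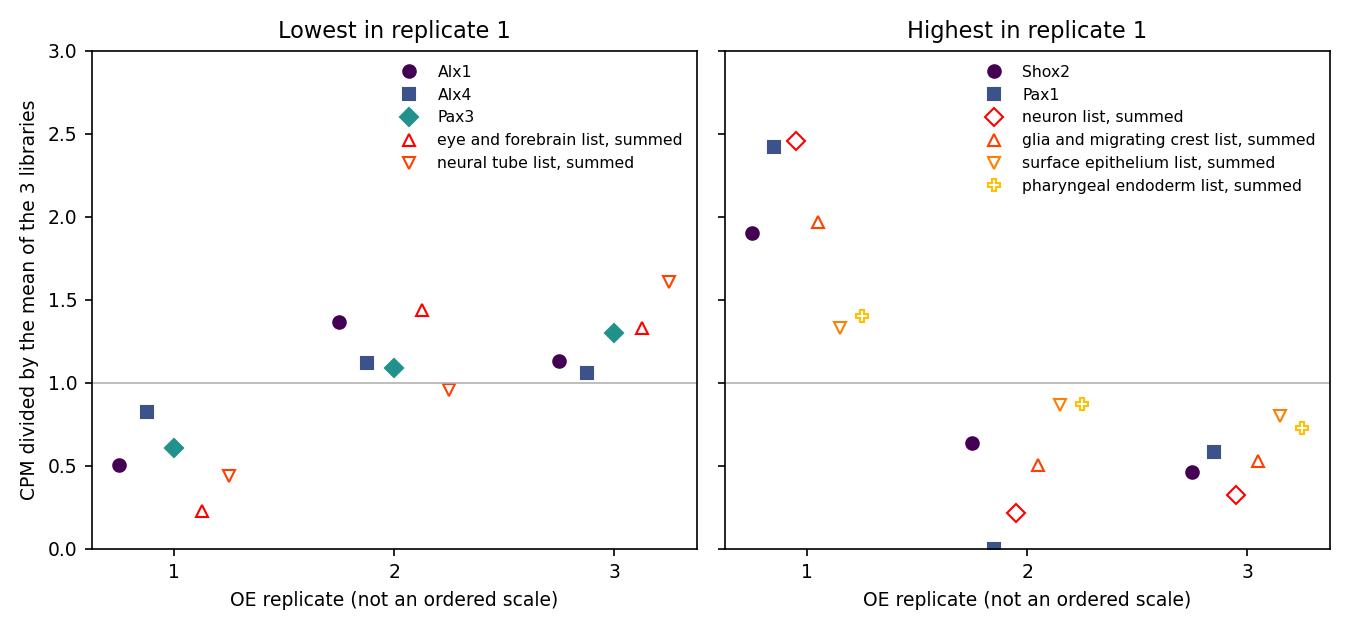
CPM in each OE replicate divided by the mean of the 3 libraries, with filled symbols for genes and open symbols for summed marker lists. *Alx1*, *Alx4* and *Pax3* lie below 1 in replicate 1 with the eye and neural tube lists on the left. *Shox2* and *Pax1* lie above 1 there with the neuron, glia, epithelium and endoderm lists on the right. Of the genes not drawn, *Prrx2*, *Pax9* and *Pax7* were also below 1 in replicate 1, at 0.845, 0.886 and 0.938. *Prrx1* was above 1 there, at 1.16.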

How the data were processed

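The authors mapped paired-end reads of poly(A)-selected RNA to mm10 and deposited 1 table of raw counts for each library. The submitters' processing notes name FastQC, STAR 2.7.3a and HTSeq 0.12.4. The annotation release, overlap mode and strand setting are not given in the sources used here. Rows that name no gene (14.2%, 15.7% and 16.4% of the counts in replicates 1, 2 and 3) were left out.

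Of the identifiers, 55141 were found in GENCODE M21 (GRCm38) and 260 were not. CPM used TMM scaling in edgeR 4.0.16 (factors 1.06, 1.01 and 0.940), and log2 CPM a prior count of 2. TPM used joined exon lengths. Each gene with a mean count of at least 10 was tested by chi-square for counts in proportion to scaled library sizes, adjusted by Benjamini-Hochberg at 0.05. With 1 group, no contrast could be tested. Exact (Clopper-Pearson) 95% intervals and the limit of 3 counts cover counting error only. A trend on length and transcript GC content was fitted with mgcv 1.9.3. DESeq2 1.42.0 (R 4.3.3) gave alternative size factors and dispersions. Steps were tested on simulated data.

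The genes and lists were chosen with earlier results of these data known. Named genes were all members, the 5 most abundant other paired-class genes, all partners and targets, overlapping genes, the 3 nearest profiles of each member with a ratio of at least 2, and markers set beside a result. Single values of a few genes and sequences covered by these rules are not reported here.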

Additional observations from a re-analysis of the deposited data

How the results depend on the processing

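The results were recomputed with other scalings, filters, prior counts, gene lengths and dispersions, and without each replicate in turn. Of 115 recomputed values, 109 stayed close to the value reported, which meant a shift of no more than 1 SD between replicates for levels and ratios and within 1.5 times for counts and spreads. By that rule mean *Pax1* (0.364 CPM, and 0.103 without replicate 1) and mean *Shox2* (5.63 CPM, and 3.02 without replicate 1) are among the 109, although both moved by over 1.5 times. The mean log2 ratio of *Alx4* to *Alx1* reversed from 0.83 to -0.27 with the length of the longest transcript. The share of all genes beyond counting noise was 53.4% with every gene of at least 1 count, and between 48.8% (without replicate 3) and 77.7% without 1 replicate. Other paired-class genes detected in every library numbered 7 at a minimum of 1 CPM, against 11 at 10 counts. Without 1 replicate, the overlapping neighbours in the order numbered 1 to 3, with 1 without replicate 1, and the median SD of log2 CPM of the 9 genes was 0.31 (without replicate 1) to 0.42. The libraries differed beyond counting noise for 7 of the 9 genes without replicate 1 (with *Pax1* not testable and *Pax7* called) or replicate 2, 8 without replicate 3 and 9 with DESeq2 size factors. The median SD was 0.65 with a length trend removed and 0.50 with length and GC content removed, a setting chosen after seeing the data. No paired analysis was possible because there is only 1 group. Genes under 1 CPM, *Pax1* and *Pax7*, are limited by depth.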
